A study of Bos indicus with 11 samples.

Results

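The genes described here encode proteins that link epithelial, muscle and nerve cells to basement membranes: the FRAS1/FREM complex (FRAS1, FREM1 and FREM2), nephronectin (NPNT), the dystroglycan ligands pikachurin (EGFLAM), agrin (AGRN) and perlecan (HSPG2), the nidogens NID1 and NID2, and the receptor dystroglycan (DAG1). They were selected on measured values, since the list was drawn up around FRAS1 with the difference between pregnant and non-pregnant cows in these same biopsies already known. Of the 10 listed genes, 9 were matched by symbol in the deposited table of 24616 genes, and all 9 were among the 15081 genes tested (mean normalized count of at least 5 over all cows). NID1 is not analysed here.

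RNA-Seq had been performed on endometrial biopsies of 11 healthy multiparous Nelore (Bos indicus) cows. The biopsies were taken on day 6 after artificial insemination at detected estrus, from the uterine horn on the side opposite the corpus luteum. A diagnosis on day 30 then placed 6 cows in the pregnant (P) group and 5 in the non-pregnant (NP) group, so P and NP name a later outcome and not a state that was known on the day of sampling. No treatment separated the groups, each cow gave 1 library, and the labels gave no batch.

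Basement membranes are thin sheets of laminin and type IV collagen that underlie epithelia and surround smooth muscle, endothelial and nerve cells. FRAS1, FREM1 and FREM2 form a complex on the mesenchymal side of embryonic epithelia, and loss of the complex causes the skin blistering and organ defects of Fraser syndrome. Nidogens and perlecan bridge the laminin and collagen networks, agrin, perlecan and pikachurin carry laminin-like domains that bind the sugar chains of dystroglycan, and nephronectin is a ligand of integrin alpha-8. Dystroglycan spans the membrane and ties these ligands to the dystrophin complex inside the cell. The endometrium holds epithelium, stroma, vessels and immune cells, and in bulk tissue fewer cells of a type and less RNA per cell cannot be told apart.

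Between 9290949 and 13569085 reads per cow were assigned to genes, with a median of 11559415 in P and 10851407 in NP. Values are normalized counts, in which 1 read was worth 0.784 to 1.14. Gene lengths were not used, so levels are compared between cows and not between genes. Biopsies of the P cows P617 and P1541 had the highest smooth muscle scores (mean log2 level of the markers), at 13.2 and 12.9. The NP cow NP638 followed closely at 12.6, and the P cow P1753 came next at 11.9. EPCAM, a defining epithelial marker, had a normalized count of 269 in P617 against 2110 to 4719 in the other 10 cows. MYH11, the myosin heavy chain of smooth muscle, had 98541 in P617 and 67358 in P1541 against 6773 to 49611 in the other 9. Fold changes of the listed genes, relations with scores, ratios and list counts are given with and without P617 and P1541. Leaving out P617 and P1541 removes muscle-rich biopsies from P only, since NP638 was kept in NP.

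FRAS1 (ENSBTAG00000010716) was low in every P cow and higher in every NP cow. In P its normalized count was 3.39 in P617, 7.66 in P904, 8.71 in P1541, 4.57 in P1631, 6.04 in P1753 and 4.38 in P2396. In NP it was 37.4 in NP238, 20.3 in NP638, 14.0 in NP856, 33.7 in NP2541 and 47.9 in NP2810. The groups did not overlap, and the nearest cows were P1541, with 9 reads, and NP856, with 13 reads. The P values rested on 3 to 9 reads per cow, 35 in all, and the NP values on 13 to 47 reads, 160 in all. The mean was 5.79 ± 2.07 (SD, n = 6) in P and 30.7 ± 13.6 (SD, n = 5) in NP. In P this SD was no larger than the SD of 2.41 that counting so few reads would give by itself, so differences among P cows were not detectable at this depth, whereas in NP the SD exceeded the counting SD of 5.45. The log2 fold change of FRAS1, NP over P, was 2.15 ± 0.39 (SE), or 4.45-fold on the scale of normalized count + 1. The added 1 shrinks the change at such low counts, and the ratio of the mean normalized counts, NP over P, was 5.29. Without P617 and P1541 the log2 fold change of FRAS1 was 2.15 ± 0.41.

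FREM1 (ENSBTAG00000020141), the secreted partner that stabilizes the complex, was higher in 4 of the 6 P cows than in any NP cow and nearly absent from P617. Its normalized count was 5.65 in P617, 111 in P904, 88.1 in P1541, 281 in P1631, 411 in P1753 and 268 in P2396. In NP it was 75.9 in NP238, 60.9 in NP638, 63.5 in NP856, 98.8 in NP2541 and 91.7 in NP2810. The P cows thus covered a 72.7-fold range and the NP cows a 1.62-fold range, with P617 below and 4 P cows above all NP cows. The mean was 194 ± 151 (SD, n = 6) in P and 78.1 ± 16.8 (SD, n = 5) in NP, and the log2 fold change of -0.54 ± 0.88 (SE) was smaller than its error. Without P617 and P1541 the log2 fold change of FREM1 was -1.65 ± 0.34 (SE), and the groups did not overlap.

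FREM2 (ENSBTAG00000017032), the other transmembrane member of the complex, was level among NP cows and spread widely among P cows. It had no read in P617, where a count of 0 allows up to 3 reads, and a normalized count of 74.7 in P904, 60.0 in P1541, 58.2 in P1631, 134 in P1753 and 326 in P2396. In NP it ranged from 46.3 to 82.8 with a median of 70.3. The mean was 109 ± 115 (SD, n = 6) in P and 68.2 ± 13.6 (SD, n = 5) in NP. Only P1753 and P2396 lay above the NP cows, and only P617 lay below them. The log2 fold change of FREM2 was 0.51 ± 1.16 (SE) with all cows and -0.80 ± 0.45 without P617 and P1541, and DESeq2 on the reads gave -0.68, so no direction can be given.

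Within a cow, FREM1 and FREM2 reads were set against FRAS1 reads, of which each P cow had only 3 to 9, so the ratios in P are imprecise. FREM1 reads per FRAS1 read was 1.67 in P617, 14.5 in P904, 10.1 in P1541, 61.5 in P1631, 68 in P1753 and 61.2 in P2396, with a median of 2.93 in NP (range 1.91 to 4.54). The P cow P617, with 5 FREM1 reads on 3 FRAS1 reads, was the only P cow that did not lie above the NP range. The median over P was 37.9, in the gap between 3 low and 3 high cows, and leaving out 1 P cow moved it to 14.5 or to 61.2. It was 61.4 without P617 and P1541. FREM2 reads per FRAS1 read had a median of 11.3 in P (range 0 to 74.6; 17.5 without P617 and P1541) and 2 in NP (range 1.37 to 5.92). Because FRAS1 is the divisor and chose the list, these ratios carry its difference between the groups and are a description.

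**Figure D1:**
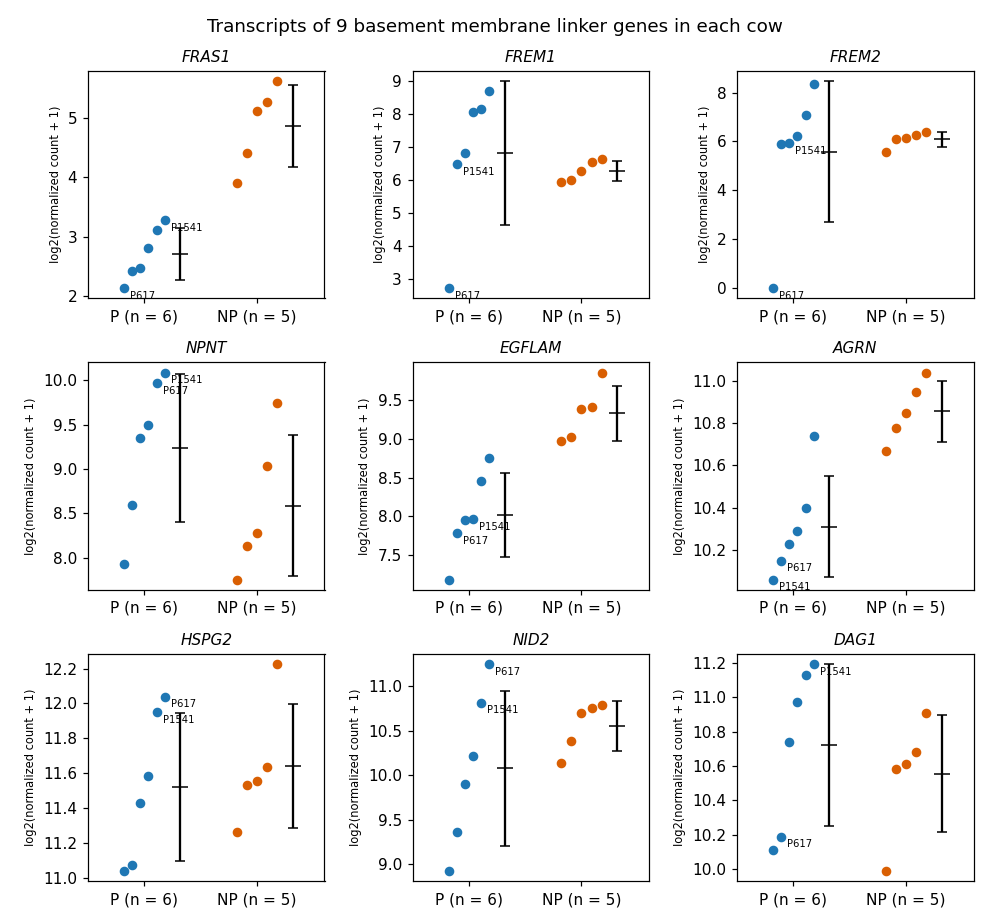
Normalized counts of the 9 measured genes on a log2(normalized count + 1) axis, with 1 panel per gene, 1 point per cow (P in blue, n = 6; NP in orange, n = 5; sorted by value) and the mean ± SD beside each group. FRAS1 and EGFLAM are the genes in which no P cow reaches an NP cow, and P617 is the lowest point of FRAS1, FREM1 and FREM2.

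EGFLAM (ENSBTAG00000019595), which encodes pikachurin, a dystroglycan ligand best known from photoreceptor synapses, was also higher in every NP cow. Its normalized count in P was 220 in P617, 431 in P904, 249 in P1541, 145 in P1631, 350 in P1753 and 248 in P2396. In NP it was 666 in NP238, 500 in NP638, 675 in NP856, 516 in NP2541 and 919 in NP2810. The groups did not overlap, with P904 the P cow nearest to NP638. The mean was 274 ± 101 (SD, n = 6) in P and 655 ± 169 (SD, n = 5) in NP, above the counting SD of 16.5 and 25.5. The log2 fold change of EGFLAM was 1.30 ± 0.26 (SE), a 2.47-fold higher level in NP, and 1.23 ± 0.30 without P617 and P1541.

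AGRN (ENSBTAG00000013191), which encodes agrin, the heparan sulfate proteoglycan that organizes the neuromuscular synapse and also lies in epithelial and vascular basement membranes, showed a smaller difference in the same direction. Its normalized count in P was 1134 in P617, 1251 in P904, 1066 in P1541, 1707 in P1631, 1350 in P1753 and 1196 in P2396. In NP it was 2105 in NP238, 1976 in NP638, 1625 in NP856, 1752.6 in NP2541 and 1846 in NP2810. The groups overlapped by 1 pair of cows, P1631 lying above NP856. The mean was 1284 ± 229 (SD, n = 6) in P and 1861 ± 187 (SD, n = 5) in NP, and the log2 fold change of AGRN was 0.55 ± 0.13 (SE), a 1.46-fold higher level in NP. It was 0.44 ± 0.12 without P617 and P1541.

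HSPG2 (ENSBTAG00000017122), which encodes perlecan, the large heparan sulfate proteoglycan of vascular and muscle basement membranes, overlapped between groups over most of its range. Its normalized count ran from 2101 to 4208 in P (median 2914) and from 2455 to 4789 in NP (median 3005). The highest P cows were P617 with 4208 and P1541 with 3957, and the highest NP cow was NP638 with 4789. The mean was 3041 ± 890 (SD, n = 6) in P and 3279 ± 886 (SD, n = 5) in NP, and the log2 fold change of HSPG2 was 0.12 ± 0.22 (SE), or 0.36 ± 0.19 without P617 and P1541.

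NID2 (ENSBTAG00000021945), which encodes nidogen-2, a laminin and collagen binding glycoprotein, varied 5.01-fold among P cows and 1.57-fold among NP cows. Its normalized count in P was 2431 in P617, 1186 in P904, 1803 in P1541, 485 in P1631, 958 in P1753 and 657 in P2396. In NP it was 1658 in NP238, 1734 in NP638, 1125 in NP856, 1336 in NP2541 and 1763 in NP2810. P617 and P1541 lay above every NP cow, and P1631, P1753 and P2396 below every NP cow. The mean was 1254 ± 738 (SD, n = 6) in P and 1523 ± 280 (SD, n = 5) in NP, and the log2 fold change of NID2 was 0.47 ± 0.37 (SE), or 0.95 ± 0.25 without P617 and P1541.

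NPNT (ENSBTAG00000006686), which encodes nephronectin, the integrin alpha-8 ligand known from kidney development, had its highest values in cows of both groups. Its normalized count in P was 1001 in P617, 242 in P904, 1086 in P1541, 385 in P1631, 721 in P1753 and 650 in P2396. In NP it was 279 in NP238, 853 in NP638, 309 in NP856, 524 in NP2541 and 215 in NP2810. The groups overlapped widely, P617 and P1541 being the only cows above NP638. The mean was 681 ± 331 (SD, n = 6) in P and 436 ± 260 (SD, n = 5) in NP, and the log2 fold change of NPNT was -0.65 ± 0.44 (SE), or -0.25 ± 0.43 without P617 and P1541.

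DAG1 (ENSBTAG00000011580), the receptor that the ligands above share, ranged from 1105 to 2338 in P (median 1858) and from 1014 to 1920 in NP (median 1562) as a normalized count. The P cows P1541, P1753 and P2396 lay above every NP cow, while P617 and P904 lay near the lowest, so the groups overlapped. The mean was 1761 ± 532 (SD, n = 6) in P and 1534 ± 328 (SD, n = 5) in NP, and the log2 fold change of DAG1 was -0.17 ± 0.23 (SE), or -0.18 ± 0.23 without P617 and P1541.

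Across the 9 genes, 6 had a higher mean log2 level in NP (FRAS1, FREM2, EGFLAM, AGRN, HSPG2 and NID2) and 3 in P (FREM1, NPNT and DAG1). The higher level was in NP for 50.2% of all genes tested. FREM2 turned to the P side without P617 and P1541, at -0.80, and the others kept their side. The median log2 fold change of the 9 was 0.47 with all cows, against 0.00182 over all genes tested. With limma at an adjusted p under 0.1, none of the 9 was called, as was none of the 15081 genes (0%), while 1182 genes (7.84%) had an unadjusted p under 0.05. Under that looser rule 3 of the 9 were counted, FRAS1, EGFLAM and AGRN, all higher in NP, where the same rule took 5.49% of all genes. None of the 9 was counted as higher in P, where the rule took 2.35%. On the recovered reads, edgeR called 0 genes, with 1151 at an unadjusted p under 0.05, limma-voom called 0, with 1173, and DESeq2 called 201 genes (1.33%), among them FRAS1, EGFLAM and AGRN.

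Groups did not overlap in 2 of the 9 genes, FRAS1 and EGFLAM, against 1.09% of all genes. The absence of overlap rests on P617 being a P cow, since its FRAS1 and EGFLAM levels of 3.39 and 220 lie among those of the P group. Without P617 and P1541 it held for FRAS1, FREM1 and EGFLAM, against 3.66% of all genes, and an unadjusted p under 0.05 in limma was reached by 5 of the 9 (FRAS1, FREM1, EGFLAM, AGRN and NID2), against 11.1% of all genes. All of these shares describe the contrast on which the list was chosen, and nothing is read from them.

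**Figure D2:**
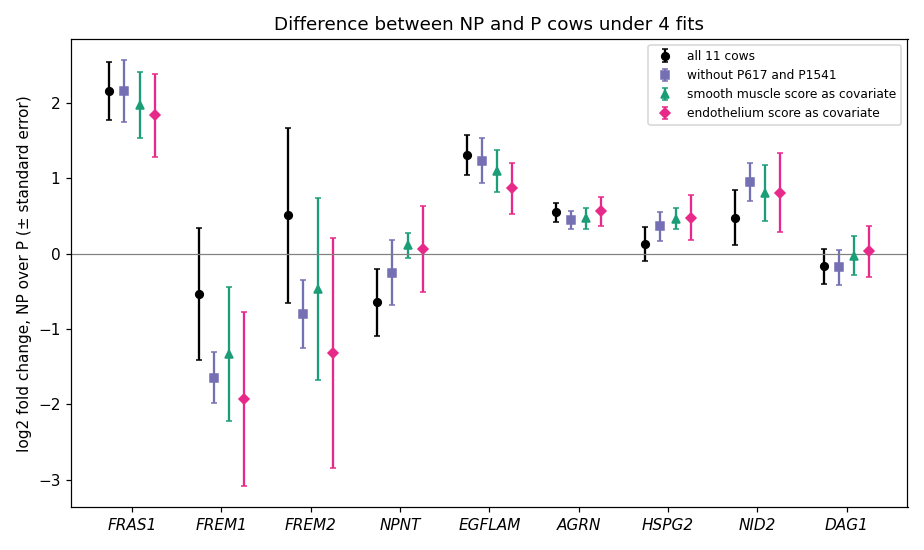
Log2 fold change, NP over P, of the 9 genes from limma, with bars for ± 1 standard error, under 4 fits: all 11 cows (6 P, 5 NP), without P617 and P1541, and with the smooth muscle or the endothelium marker score as a covariate. FRAS1, EGFLAM, AGRN, HSPG2 and NID2 stay above 0 in the 4 fits, FREM1 stays below 0, and FREM2, NPNT and DAG1 change sign.

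Vessel markers moved with the group. All 10 endothelial markers measured (among them CDH5, TEK, VWF and PECAM1) had a higher mean log2 level in NP, 9 of them with an unadjusted p under 0.05 in limma, and their summed normalized count ranged from 5147 to 15534 in P and from 9353 to 17139 in NP. All 6 pericyte markers measured were likewise higher in NP, 3 with an unadjusted p under 0.05, with sums of 3956 to 8357 in P and 7566 to 9242 in NP. All 10 immune markers were higher in NP, 5 with an unadjusted p under 0.05, with sums of 485 to 1241 in P and 861 to 1742 in NP. No marker of these 3 lists was at 0 in any cow, and none reached an adjusted p under 0.1. Of all genes tested, 50.2% had the higher level in NP. An unadjusted p under 0.05 was reached by 5.49% with the higher level in NP and by 2.35% with the higher level in P. All markers of the 3 lists were again higher in NP without P617 and P1541. An unadjusted p under 0.05 was then reached by 7 of 10 endothelial, 5 of 6 pericyte and 2 of 10 immune markers. The share over all genes, in either direction, was 11.1%. In that fit 1 pericyte marker had an adjusted p under 0.1. The endothelial sum in P was then 7708 to 15534, the immune sum 572 to 1241, and the pericyte sum kept its range. With the endothelial score (the mean log2 level of the list) as a covariate the log2 fold change was 1.83 for FRAS1, 0.87 for EGFLAM and 0.56 for AGRN. With the pericyte score it was 1.84, 0.81 and 0.77 in the same order, and with the immune score it was 1.96 for FRAS1 and 0.84 for EGFLAM. The part of vessel and immune cells in these differences was not tested beyond these values.

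Smooth muscle markers differed in the other direction. Of the 9 measured, 8 had a higher mean log2 level in P, 2 with an unadjusted p under 0.05 (MYH11 and DES), and 1 was higher in NP with such a p. Their summed normalized count ranged from 50990 to 428760 in P and from 25600 to 178410 in NP. Epithelial marker sums ranged from 3155 to 30417 in P and from 13474 to 19162 in NP, with 1 of 13 markers at an unadjusted p under 0.05, higher in P. Stromal sums ranged from 106570 to 332220 in P and from 214840 to 302340 in NP, with 1 of 10 at such a p, higher in NP. Mesothelial markers gave 1 of 4 at such a p, higher in P (MSLN), nerve and Schwann cell markers 1 of 4, higher in NP, and proliferation markers 0 of 10. The markers at 0 in at least 1 cow included CASQ2 of the muscle list, LRRN4 and CALB2 of the mesothelial list and SOX10 of the nerve list. With P617 and P1541 left out, the stromal sum was 106570 to 168610 in P, below every NP cow, and 9 of 10 stromal markers had an unadjusted p under 0.05, all higher in NP. The epithelial sum was then 18514 to 30417 in P with 4 of 13 markers at such a p, higher in P, and the smooth muscle sum was 50990 to 117710 in P with 0 of 9. Mesothelial markers then gave 1 of 4 higher in NP and 2 higher in P, nerve markers 2 of 4 higher in NP and proliferation markers 1 of 10 higher in P.

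**Figure D3:**
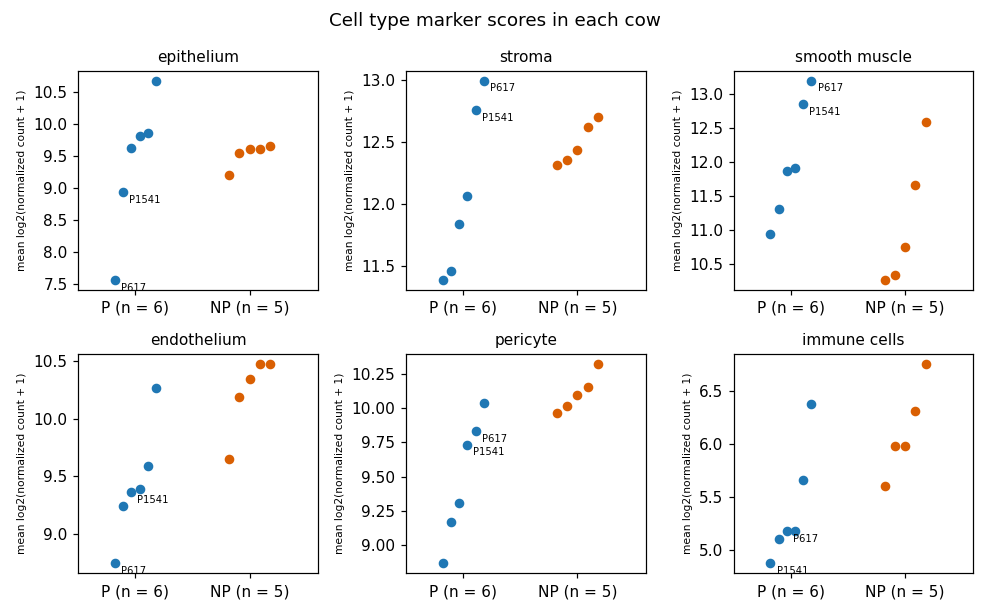
Marker scores, the mean log2(normalized count + 1) over a list, for 6 tissue compartments, with 1 point per cow (P in blue, n = 6; NP in orange, n = 5; sorted by value). The endothelium score spans 8.75 to 10.3 in P and 9.65 to 10.5 in NP, and P617 has the lowest epithelium score (7.56) and the highest smooth muscle score (13.2).

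Several of the genes varied with the score of a compartment from cow to cow within the groups, some of them with more than 1 score. This was measured after removing each group's mean, which leaves out the contrast that chose the list, with two-sided exact permutation tests that shuffle cows within groups and with adjustment over all 54 pairs of 9 genes and 6 scores. NPNT followed the smooth muscle score, with a Pearson r of 0.96 over 11 cows (exact permutation, adjusted p = 0.00156) and a Spearman rho of 0.98 (exact permutation, adjusted p = 9.38e-04). Without the 2 cows farthest from the median of NPNT r was 0.97, and without P617 and P1541 it was 0.95. With the smooth muscle score as a covariate the log2 fold change of NPNT between NP and P was 0.11 ± 0.17 (SE), against -0.65 without it.

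HSPG2 also followed the smooth muscle score, with r of 0.88 (exact permutation, adjusted p = 0.0229) and rho of 0.90 (exact permutation, adjusted p = 0.00813) over 11 cows, and r of 0.76 without the 2 farthest cows and 0.80 without P617 and P1541. Given that score, its log2 fold change was 0.46 ± 0.14 (SE), NP over P. NPNT and HSPG2 ran against the immune score, with r of -0.81 (exact permutation, adjusted p = 0.0368) and -0.83 (exact permutation, adjusted p = 0.0291), and rho of -0.80 (exact permutation, adjusted p = 0.0701) and -0.89 (exact permutation, adjusted p = 0.0161). Without the 2 farthest cows r was -0.59 for NPNT and -0.73 for HSPG2, and without P617 and P1541 it was -0.77 and -0.85.

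NID2 followed the stromal score, which is built from collagens, vimentin, lumican and other fibroblast genes, with r of 0.97 over 11 cows (exact permutation, adjusted p = 0.00156) and rho of 0.98 (exact permutation, adjusted p = 6.25e-04). Without the 2 farthest cows r was 0.96, and without P617 and P1541 it was 0.95. NID2 ran against the epithelial score, with r of -0.90 (exact permutation, adjusted p = 0.0244) and rho of -0.84 (exact permutation, adjusted p = 0.0701), and r of -0.85 without the 2 farthest cows and -0.76 without P617 and P1541. With the stromal score as a covariate the log2 fold change of NID2 was -0.05, NP over P, against 0.47 without it. NID2 had r of 0.81 with the pericyte score (exact permutation, adjusted p = 0.171), and 0.83 without P617 and P1541. With the pericyte score as a covariate its log2 fold change was -0.51. The low NID2 values of P1631, P1753 and P2396 came from the biopsies with the lowest stromal scores.

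FREM1 went with the epithelial score, with r of 0.92 (exact permutation, adjusted p = 0.0616) and rho of 0.93 (exact permutation, adjusted p = 0.0161) over 11 cows. Without the 2 cows farthest from its median r was 0.84, without P617 it was 0.69, and without P617 and P1541 it was 0.42, so the relation rested in large part on those cows. FREM1 also ran against the stromal score, with r of -0.82 (exact permutation, adjusted p = 0.0809). That r was -0.84 without the 2 farthest cows and -0.40 without P617 and P1541. The log2 fold change of FREM1 was 0.51 with the stromal score as a covariate and -0.75 with the epithelial score, against -0.54 with neither. FRAS1, EGFLAM and AGRN had no relation with any of the 6 scores at an adjusted p under 0.05, and their largest r in size over 11 cows were -0.34 (FRAS1 with smooth muscle), 0.67 (EGFLAM with immune cells) and 0.63 (AGRN with epithelium). P617 decided which score came first for FRAS1, since without it r was 0.55 with stroma and 0.51 with pericytes, against 0.15 and 0.31 over all cows. Without P617 and P1541 r was 0.54 for FRAS1 with stroma, and 0.79 and 0.78 for EGFLAM with pericytes and stroma, against 0.58 and 0.16 over all cows. For AGRN with epithelium it was 0.62.

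**Figure D4:**
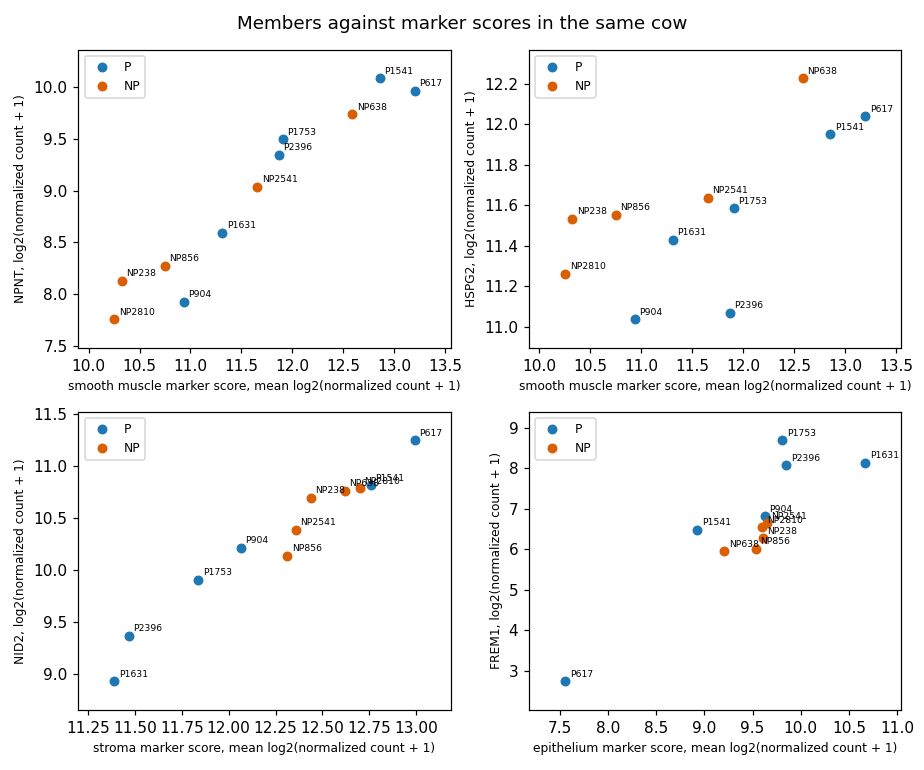
Level of 4 genes against a marker score in the same cow, both as log2(normalized count + 1), with 1 labelled point per cow (6 P in blue, 5 NP in orange). NPNT and HSPG2 climb with the smooth muscle score and NID2 with the stroma score in cows of both groups, whereas the lower end of the FREM1 plot is the single cow P617.

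The genes of the FRAS1/FREM complex were then compared with each other in the same way, within groups and over 3 pairs. FREM1 and FREM2 had r of 0.92 (exact permutation, p = 0.0412, adjusted p = 0.124) but rho of 0.51 (exact permutation, p = 0.133, adjusted p = 0.400), and r of 0.36 without P617 and P1753, the farthest cows. The relation did not pass the adjustment and rested on P617. FRAS1 had r of 0.29 with FREM1 (exact permutation, p = 0.343, adjusted p = 0.465; rho 0.16, exact permutation, p = 0.619) and r of 0.24 with FREM2 (exact permutation, p = 0.465, adjusted p = 0.465; rho 0.17, exact permutation, p = 0.549). Without the 2 farthest cows these were 0.33 and 0.29, but without P617 both turned negative, at -0.14 and -0.34, so no direction can be given. FRAS1 rested on 3 to 9 reads in each P cow, which limits what such a relation can show.

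Over the 11 cows with the group difference left in, the 5 genes whose log2 level was most like that of FRAS1 were SEMA5A (Pearson r = 0.93), FBLN1 (0.93), BGN (0.92), ENSBTAG00000008101 (0.91) and SH2D3C (0.91), as a description over points that share the P and NP split. FBLN1 encodes fibulin-1, a basement membrane glycoprotein, and BGN encodes the small proteoglycan biglycan. Among the listed genes EGFLAM was closest to FRAS1, with r of 0.86 and rank 31 of all genes, followed by AGRN with 0.76 and rank 210. FREM1 and FREM2, the partners of FRAS1 in the complex, had r of -0.04 and 0.22. After centring on group means the 5 closest genes were ENSBTAG00000017766 (0.92), TRIM7 (0.88), MRPL33 (0.87), ZBTB8OS (0.87) and COMMD7 (0.85), none of them among the first 5, and EGFLAM had r of 0.45.

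The neighbours of these genes in the same systems were taken as 7 lists of 118 genes, of which 103 were in the table and 92 were tested. No gene of the 7 lists had an adjusted p under 0.1 in limma. An unadjusted p under 0.05 was reached by 9 genes with the higher level in NP and 3 with the higher level in P, together 13.0% of those tested against 7.84% of all genes. Without P617 and P1541 the counts were 15 and 3, together 19.6% against 11.1% of all genes, again with none at an adjusted p under 0.1.

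Partners of the FRAS1/FREM complex and of nephronectin gave no such gene among 5 tested (median log2 fold change 0.20, NP over P), and 1, higher in NP, without P617 and P1541 (median -0.08). VWA2, whose protein AMACO binds the complex, had a log2 fold change of 0.96 ± 0.82 (SE), ITGA8, the integrin chain that receives nephronectin, had -0.49 ± 0.45, and its partner ITGB1 had -0.21 ± 0.27. The enzymes that build the sugar chains of dystroglycan, on which EGFLAM, AGRN and HSPG2 depend for binding, gave none among 18 tested, with a median of 0.04, and none without P617 and P1541. The summed normalized count of these 18 enzymes stayed between 6200 and 6813 in P and between 6220 and 6800 in NP. The 3 with the smallest p were POMGNT1 (-0.19 ± 0.11), ISPD (-0.42 ± 0.29) and GTDC2 (-0.25 ± 0.17).

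The dystrophin complex, which anchors dystroglycan inside the cell, held 13 tested genes with a median of -0.19. At an unadjusted p under 0.05 it gave 1 gene higher in NP and 1 higher in P. Without P617 and P1541 it gave 1 higher in NP and 2 higher in P, with a median of 0.08. DTNA, which encodes alpha-dystrobrevin, had a mean of 919 ± 324 (SD, n = 6) in P and 495 ± 201 (SD, n = 5) in NP, a log2 fold change of -0.91 ± 0.30 (SE; limma, unadjusted p = 0.0107, adjusted p = 0.446). UTRN, which encodes the dystrophin homologue utrophin, had a log2 fold change of 0.36 ± 0.20 (limma, unadjusted p = 0.0967). DTNA thus had the higher level in P, with a log2 fold change of -0.67 without P617 and P1541, and UTRN did not reach an unadjusted p under 0.05. Dystrophin itself is not analysed here.

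Of the receptors for agrin and pikachurin and the proteins that act with them, 2 genes were tested. LRP4, the co-receptor for agrin, had a mean normalized count of 292 ± 62.8 (SD, n = 6) in P and 437 ± 78.1 (SD, n = 5) in NP, a log2 fold change of 0.59 ± 0.18 (SE; limma, unadjusted p = 0.00681, adjusted p = 0.389), the same direction as AGRN. RAPSN, the scaffold protein rapsyn, had -0.33 ± 0.59. Without P617 and P1541 the log2 fold change of LRP4 was 0.64. Of the 2 genes, 1 then had an unadjusted p under 0.05, higher in NP. MUSK, the receptor kinase that acts with LRP4, and GPR179 and GPR158, receptors of pikachurin, had no read in at least 1 cow and were under the filter on the mean.

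Enzymes that make or edit heparan sulfate, the sugar chain carried by agrin and perlecan, gave 3 of 21 at an unadjusted p under 0.05, in both directions, and a median of 0.03. HS2ST1, a sulfotransferase, was higher in NP (log2 fold change 1.07 ± 0.38 (SE); limma, unadjusted p = 0.0165, adjusted p = 0.487). GLCE, the epimerase of the chain, and HS3ST6, another sulfotransferase, were higher in P at -0.56 ± 0.19 (limma, unadjusted p = 0.0122) and -0.93 ± 0.41 (limma, unadjusted p = 0.0429). None of HS2ST1, GLCE and HS3ST6 had an unadjusted p under 0.05 without P617 and P1541, at log2 fold changes of 0.74, -0.44 and -0.58. Other genes of the list then reached such a p, 2 higher in NP and 1 higher in P, with a median of -0.00183.

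Other heparan sulfate proteoglycans gave 2 of 11, with a median of 0.31. COL18A1, a collagen chain of vascular and epithelial basement membranes, had a mean of 4888 ± 1626 (SD, n = 6) in P and 7584 ± 681 (SD, n = 5) in NP, with every NP cow above every P cow (3220 to 6625 in P, 6800 to 8257 in NP). Its log2 fold change was 0.70 ± 0.22 (SE; limma, unadjusted p = 0.00844, adjusted p = 0.416). GPC2, a glypican of low level here, had 5.14 ± 2.84 in P and 13.5 ± 6.75 in NP, a log2 fold change of 1.23 ± 0.46 (limma, unadjusted p = 0.0215), and GPC6 had -1.33 ± 0.81 (limma, unadjusted p = 0.127). The log2 fold change without P617 and P1541 was 0.70 for COL18A1 and 0.91 for GPC2, the latter with an unadjusted p of 0.0858 in limma. The list then gave 2 of 11 at an unadjusted p under 0.05, higher in NP, with a median of 0.08.

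The laminin, collagen IV and associated basement membrane genes gave 4 of 22 with the higher level in NP and none in P, with a median of 0.14. FBLN1 had a mean normalized count of 4045 ± 256 (SD, n = 6) in P and 6501 ± 1334 (SD, n = 5) in NP, without overlap (3623 to 4317 against 5726 to 8837), and a log2 fold change of 0.67 ± 0.13 (SE; limma, unadjusted p = 3.4e-04, adjusted p = 0.241). LAMB2, which encodes the laminin beta-2 chain, had 1756 ± 188 in P and 2353 ± 108 in NP, also without overlap (1455 to 1922 against 2199 to 2488), and a log2 fold change of 0.43 ± 0.10 (limma, unadjusted p = 0.00101, adjusted p = 0.264). TINAGL1, a laminin-associated protein, had 0.67 ± 0.24 (limma, unadjusted p = 0.0172). SMOC2, named because it completes the count of 4 and chosen after its values were seen, had 1.22. Leaving out P617 and P1541, the list gave 8 of 22, all higher in NP, with log2 fold changes of 0.63 for FBLN1, 0.48 for LAMB2, 0.63 for TINAGL1 and 0.74 for SMOC2. FBLN1, LAMB2 and, in the list before, COL18A1 had smaller log2 fold changes than FRAS1 and EGFLAM. These 3 genes were named for their small p between P and NP. Their separation of the same cows goes with that choice, and no likeness to FRAS1 and EGFLAM is read from it. Such a separation was seen in 1.09% of the 15081 genes tested.

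**Figure D5:**
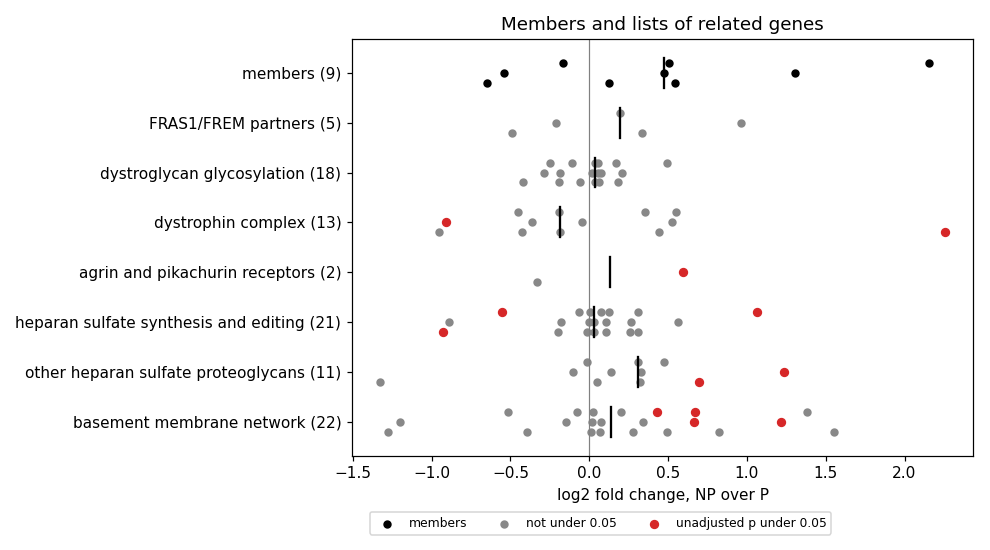
Log2 fold change, NP over P, of each of the 9 genes (black) and of every tested gene in the 7 lists of related genes (grey, and red where limma gave an unadjusted p under 0.05), with the number of genes in brackets and a vertical bar at each list's median. Red points lie on both sides of 0 for heparan sulfate enzymes, and to the right of 0 for other proteoglycans and the basement membrane network.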

How the data were processed

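Total RNA of frozen endometrial biopsies had been made into TruSeq libraries and sequenced by the submitters. Their processing notes name CASAVA 1.8.2, Bowtie2 2.1.0, HTSeq 0.5.4p2, DESeq2 1.12.1 and the build UMD3.1, and Seqyclean is named in the study's methods; annotation and strand setting are not given in the sources used here. What the authors deposited is a signal per gene, namely normalized counts (reads divided by a size factor of the library). Whole reads were recovered by dividing each column by the value of 1 read, and 100% of values came out whole within 0.02 of a read.

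Groups followed the labels. P617 is labelled pregnant and was kept so, although the study names it non-pregnant elsewhere; its stated group sizes, 6 P and 5 NP, are those of the labels. An edgeR test had been planned for raw counts. Because the values were normalized, limma 3.58.1 (R 4.3.3, trended empirical Bayes) was applied to log2(normalized count + 1) of the 15081 genes whose mean reached 5, with Benjamini-Hochberg adjustment and a threshold of 0.1. Fold changes are on that scale, which understates the change of low genes such as FRAS1. Alternatives were edgeR 4.0.16, limma-voom and DESeq2 1.42.0 on the recovered reads, other scalings, pseudocounts and filters, leaving out each cow, leaving out P617 and P1541, and the smooth muscle and epithelial scores as covariates. Endothelial, pericyte, immune and stromal covariates, the 54 relations with scores and the relations without P617 alone, and lists and ratios without P617 and P1541, were added after seeing the data. Scripts were tested on simulated data.

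The members, pathway lists and marker lists were chosen with earlier results of these data known, so values of the members between P and NP are a description. Named genes were all members, the 3 genes of smallest p in each related list and the 5 most like FRAS1, beside markers; some values are not reported here. Each library is 1 cow, so p-values measure the spread between cows. Depth was 9290949 to 13569085 reads per cow. No sequence or coordinate is given, because the reference table used here is of another assembly and holds no sequence.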

Additional observations from a re-analysis of the deposited data

How the results depend on the processing

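The log2 fold changes of FRAS1, EGFLAM and AGRN were above 0 in each of the 27 alternatives, ranging from 1.65 to 2.40, 0.81 to 1.45 and 0.44 to 0.77. The sign turned in 2 alternatives for FREM1 (range -1.93 to 1.18), 7 for FREM2 (-1.32 to 2.14), 3 for NPNT (-0.94 to 0.33), 2 for HSPG2 (-0.07 to 0.61), 2 for NID2 (-0.51 to 0.95) and 3 for DAG1 (-0.29 to 0.25).

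The number of genes at an adjusted p under 0.1 was 0 in limma with all cows, 201 with DESeq2, 17 without P617 and P1541, 107 with the epithelial score as a covariate and 3741 with the stroma score as a covariate. Leaving out 1 cow gave 0 to 171, the 171 without P904. The cause of these shifts was not tested. The count of members at an unadjusted p under 0.05 was 3 with all cows and 5 without P617 and P1541, and 3 to 5 on leaving out 1 cow, with 5 without P617. Members whose groups did not overlap numbered 2 to 3 on leaving out 1 cow, AGRN joining without P1631 or without NP856.

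Within groups, r of FRAS1 with FREM1 was -0.14 without P617 and 0.098 without P617 and P1541. In the same order, r of FRAS1 with FREM2 was -0.34 and -0.25, and that of FREM1 with FREM2 was 0.40 and 0.20. The planned order of members by level per length and the pair NID1 with NID2 were not run, since no gene lengths were used and NID1 is not analysed here. Depth limits FRAS1 in P most.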
